A study of Mus musculus with 6 samples.

Results

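The genes described here are 10 members of the Ifi200 family, chosen by name: Aim2, Ifi203, Ifi204, Ifi205, Ifi207, Ifi208, Ifi209, Ifi211, Ifi213 and Ifi214. All 10 were found among the 16281 genes of the deposited count table. They were chosen with the comparison below already known, so their values are given as a description, without a test. CD8+ T cells came from the spleen of C57BL/6 mice of the OT1 line, genotype Tg(TcraTcrb)1100Mjb, whose cells carry one transgenic T-cell receptor. All samples were stimulated with anti-CD3 and anti-CD28, each at 2 μg/ml, and IL-2 at 20 ng/ml for 48 h, and then expanded with IL-2 for 3 days. The 3 GSK samples received 0.5 μM GSK2879552, an inhibitor of the histone demethylase LSD1, throughout the culture, and the 3 vehicle (Veh) samples received the vehicle. The study's text names 3 separate mice, and the age of the mice of these samples is not given in the sources used here. OT1 cells recognise one ovalbumin peptide, which limits the cultures as a model of a mixed CD8+ T-cell population.

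Ifi200 proteins, also called HIN-200 or PYHIN proteins, carry DNA-binding HIN domains, a pyrin domain that joins them to other proteins, or both. Many of the genes are switched on by type I interferon, the cytokine that cells release on meeting viral nucleic acid. AIM2 binds DNA in the cytosol and, through the adaptor Pycard, gathers caspase-1 into an inflammasome that cuts IL-1β and IL-18 into their active forms. IFI204, a mouse relative of human IFI16, can instead feed the adaptor STING, which leads through the kinase TBK1 to the transcription factor IRF3 and to interferon production. For several other members of the mouse family the function is less well settled.

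The members lie side by side on mouse chromosome 1, in GRCm38.p6 between 173349547 and 174031755, a span of 682 kb. This span also holds Ifi206, Mndal and Ifi202b, which belong to the same family and are not among the 10, so that 13 family genes follow each other in the order Aim2, Ifi206, Ifi214, Ifi213, Ifi209, Ifi208, Ifi207, Ifi204, Mndal, Ifi211, Ifi203, Ifi202b and Ifi205. Of the 10 members, Aim2 was the one whose annotated span overlapped other genes, Cadm3 and a tRNA gene. Interferon acts on promoters through the interferon-stimulated response element, whose core GAAANNGAAA was searched on both strands of RefSeq promoters, from 250 bases before to 50 bases after each start site. It occurred in 3.443% of the 32851 promoters of the table, and the interferon gamma-activated sequence, TTCNNNGAA, in 8.298%. The first motif was present in a promoter of 7 of the 9 members with an entry, and the second in none of them. The promoters of Aim2 and Ifi209 held neither motif, and Ifi204 had no entry in the table. For Ifi203 the match lay at the second of 2 start sites.

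The stretches of 80 bases around the first motif fell into a few types, which are shown because they show how alike the promoters of the members are. Each stretch is written 5′ to 3′ on the strand of its gene, from the GRCm38.p6 promoter table of RefSeq, and capitals mark the match to GAAANNGAAA. In Ifi209, the stretch that lines up with that of Ifi214 is printed without capitals because it holds no match.

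Ifi207, chr1:173741821-173741900, minus strand: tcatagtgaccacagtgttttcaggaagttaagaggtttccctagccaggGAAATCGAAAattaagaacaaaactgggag
Ifi211, chr1:173913054-173913133, minus strand: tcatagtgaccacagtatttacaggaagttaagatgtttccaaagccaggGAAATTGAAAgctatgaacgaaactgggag
Ifi205, chr1:174031860-174031939, minus strand: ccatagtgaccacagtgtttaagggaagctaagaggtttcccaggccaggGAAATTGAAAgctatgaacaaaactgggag
Ifi203, chr1:173942498-173942577, minus strand: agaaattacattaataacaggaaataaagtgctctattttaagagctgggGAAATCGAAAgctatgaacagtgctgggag
Ifi208, chr1:173673557-173673636, plus strand: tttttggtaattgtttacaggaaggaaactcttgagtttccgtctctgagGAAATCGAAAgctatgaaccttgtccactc
Ifi213, chr1:173599316-173599395, minus strand: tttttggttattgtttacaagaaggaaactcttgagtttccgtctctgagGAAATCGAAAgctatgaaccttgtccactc
Ifi214, chr1:173536007-173536086, minus strand: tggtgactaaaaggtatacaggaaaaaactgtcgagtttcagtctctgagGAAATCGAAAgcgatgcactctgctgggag
Ifi209, chr1:173630730-173630809, plus strand: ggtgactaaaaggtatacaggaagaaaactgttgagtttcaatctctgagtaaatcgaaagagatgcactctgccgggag

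Position by position, the stretches of Ifi205, Ifi207 and Ifi211 were 86.25% to 88.75% identical to each other. Against the stretches of the other family genes, those 3 were 43.75% to 55.0% identical. Ifi208 and Ifi213 formed a second type at 97.5% identity, to which Ifi206 also belongs. Ifi214 and Ifi209 were 72.5% identical. The first part of the Ifi209 stretch is offset by a base from that of Ifi214. The comparison without gaps scores this part out of step, so that 72.5% understates how alike the pair is. The stretch of Ifi203 was identical to that of Mndal, which lies on the other side of Ifi211. A match to a motif is a description of these letters and not of a bound factor, and no binding was measured here.

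**Figure D1:**
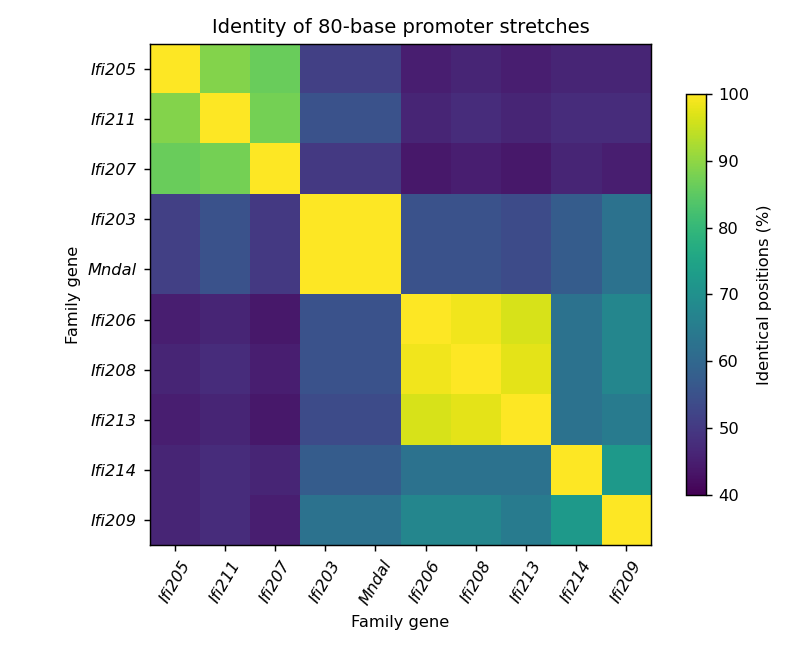
Percent of identical positions between the 80-base promoter stretches of 10 family genes, compared without gaps, with both axes listing the genes. Ifi205, Ifi211 and Ifi207 form one block at 86.25% to 88.75% identity, and Ifi206, Ifi208 and Ifi213 another. Aim2 and Ifi204 are not shown.

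The libraries held 18288447 to 18918811 counted reads in Veh and 19149909 to 19846720 in GSK. No pair of replicates agreed within sampling noise. CPM below are counts scaled by the TMM-adjusted total of each sample (CPM, the usual unit for relative abundance). In edgeR's quasi-likelihood test, 11698 genes passed the filter on low counts, and a gene was called at a Benjamini-Hochberg adjusted p under 0.05 together with a fold change over 1.5. In these bulk samples, more RNA per cell and more cells of one kind cannot be told apart. The CD8+ T-cell label went with high levels of its markers Cd8a, Cd8b1, Cd3d, Cd3e, Cd3g, Cd2 and Lck, which summed to 3089 to 3215 CPM in Veh and 2999 to 3180 CPM in GSK. By the adjusted p, Cd2 and Lck were higher in GSK and Cd3d, Cd3e and Cd3g lower.

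Within the family, GSK and Veh differed most at Ifi207, Ifi211 and Ifi204, which were all higher in GSK. Ifi207 was 5.93-fold higher, Ifi211 4.18-fold and Ifi204 2.78-fold. These 3 of the 10 members were called higher, beside 2.22% of all genes tested, and 0 were called lower, beside 4.09%. Members called lower were also 0 in DESeq2 and at an unadjusted p under 0.05 in edgeR. Since the members were picked with this contrast in view, nothing is read from these counts.

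IFI204 is the member with the best described role in DNA sensing upstream of STING. Ifi204 had 296, 417 and 260 reads in Veh samples 1 to 3, and 1051, 1081 and 669 reads in GSK samples 1 to 3. Every GSK sample was above every Veh sample, and GSK sample 3 was the lowest of its group. Group means ± SD (n = 3 each) were 17.4 ± 4.49 CPM for Veh and 48.3 ± 11.6 CPM for GSK, and the log2 fold change was 1.47 ± 0.27 (SE). Without Veh sample 1 or without GSK sample 2 the call was lost, at log2 fold changes of 1.42 and 1.37.

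Ifi207 lies directly beside Ifi204, on the same strand. Its reads numbered 9, 14 and 14 in Veh and 88, 90 and 51 in GSK. The groups were far apart, with the lowest GSK sample, again sample 3, above all Veh samples. Mean levels ± SD of 0.659 ± 0.147 CPM in the 3 Veh samples and 3.94 ± 1.11 CPM in the 3 GSK samples gave a log2 fold change of 2.57 ± 0.31 (SE). It was the one member that also passed a test of the fold change against 1.5. This adds no support, since the members were chosen with this contrast in view. Ifi207 also reached the filter on low counts through its GSK samples.

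Ifi211 lies farther along the locus, between Mndal and Ifi203. It had 13, 23 and 5 reads in Veh and 66, 79 and 34 reads in GSK. Here too the groups did not overlap, and sample 3 was the lowest of each group. Its mean ± SD (n = 3 per group) stood at 0.735 ± 0.486 CPM without the inhibitor and at 3.08 ± 1.16 CPM with it, and its log2 fold change was 2.06 ± 0.45 (SE). Leaving out Veh sample 2, the highest of its group, raised the log2 fold change to 2.66.

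Ifi205, which carries the same type of promoter stretch as Ifi207 and Ifi211, was close to the detection limit. It had 14, 11 and 2 reads in Veh and 23, 13 and 12 reads in GSK, so that the groups overlapped. Its log2 fold change of 0.77 ± 0.54 (SE) was not called and was 0.29 without Veh sample 3. All 10 members passed the filter on low counts, but Ifi205, Ifi207 and Ifi211 reached it through the GSK samples, since 2 of their 3 Veh samples lay above the cutoff of 0.525 CPM, which 3 samples had to pass.

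**Figure D2:**
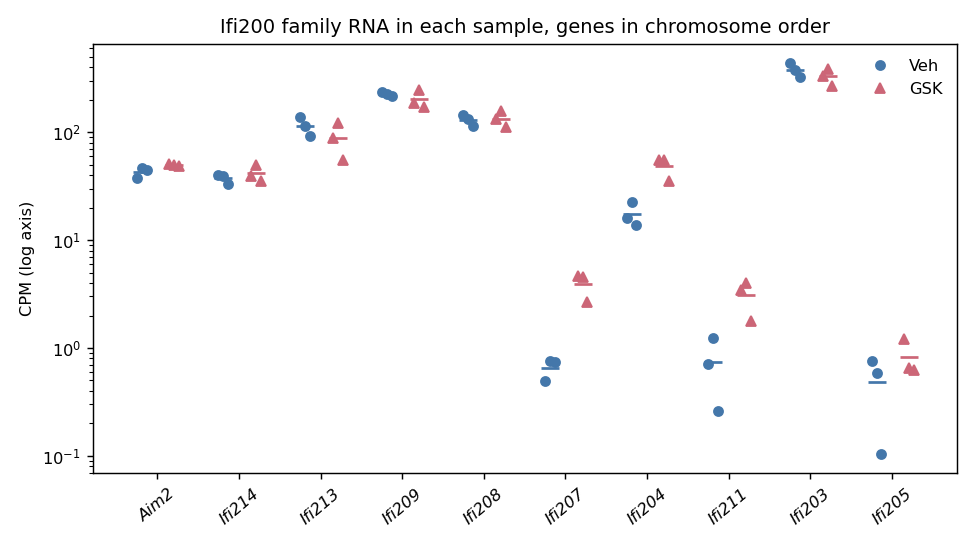
Level of each of the 10 Ifi200 family members in the 6 samples, in CPM on a log axis, with members in chromosome order. Circles are the 3 Veh samples, triangles the 3 GSK samples and short lines the group means. The groups are apart for Ifi207, Ifi204 and Ifi211, narrowly apart for Aim2, and overlap for the other 6 members.

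Aim2, the inflammasome sensor, differed little. It had 697, 860 and 848 reads in Veh and 964, 981 and 924 reads in GSK. All GSK samples lay above all Veh samples, by a small margin, and Veh sample 1 was the lowest of the 6. Means ± SD over 3 samples each, 42.9 ± 4.36 CPM for Veh and 49.5 ± 1.23 CPM for GSK, differed 1.15-fold. It passed the adjusted p but not the fold change. By the adjusted p alone, 4 of the 10 members were higher in GSK, beside 16.6% of all genes tested, and 0 were lower, beside 15.5%, where 32.1% of all genes passed in either direction. The same 4 members had all GSK samples above all Veh samples, beside 23.7% of all genes, and 46.7% of all genes had groups that did not overlap in either direction.

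The other members were not called, and their groups overlapped. Ifi203, the member with the most reads, had 7951, 7079 and 6224 reads in Veh and 6320, 7655 and 5127 in GSK, a log2 fold change of -0.21 ± 0.18 (SE). Ifi209 had 4328, 4214 and 4103 reads in Veh and 3577, 4807 and 3295 in GSK, where the Veh samples sat close together between the GSK samples. Its log2 fold change was -0.17 ± 0.14 (SE).

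Ifi213 and Ifi208 are the pair with nearly identical promoter stretches. Ifi213 had 2541, 2133 and 1755 reads in Veh and 1667, 2384 and 1067 in GSK, and with a log2 fold change of -0.38 ± 0.34 (SE) it was the lowest of the members relative to Veh, within an SE nearly as large. Ifi208 had 2641, 2446 and 2161 reads in Veh and 2502, 3090 and 2126 in GSK, at a log2 fold change of 0.04 ± 0.15 (SE). Ifi214 had 730, 736 and 627 reads in Veh and 750, 985 and 678 in GSK, at 0.15 ± 0.13 (SE). The neighbours Ifi206 and Mndal behaved like these members, the first at a log2 fold change of 0.04 ± 0.20 (SE, adjusted p = 0.912) and the second at -0.09 ± 0.12 (SE, adjusted p = 0.607).

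**Figure D3:**
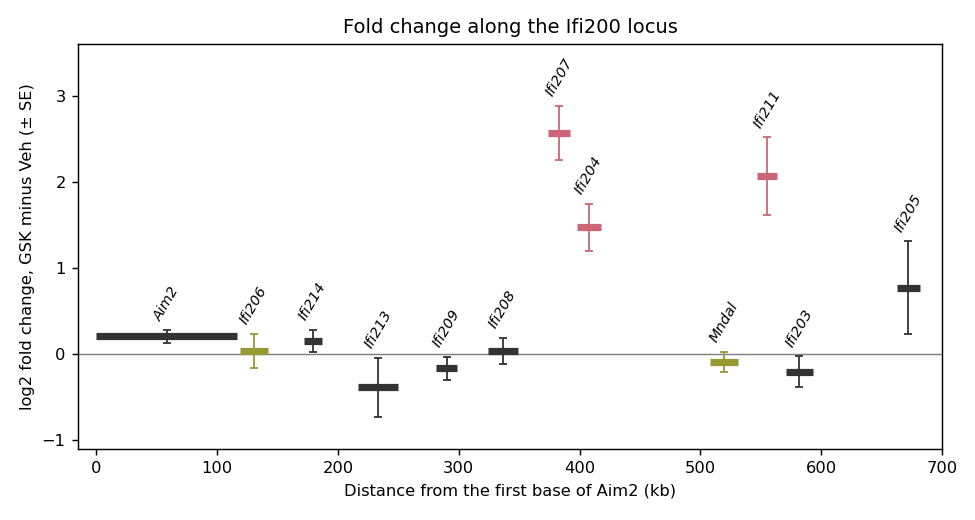
Log2 fold change (GSK minus Veh) of the tested family genes against their distance in kb from the first base of Aim2. Thick bars span each gene, thin bars show ± 1 SE, red marks called members, black the other members and olive the neighbours Ifi206 and Mndal. Ifi207, Ifi204 and Ifi211 stand at 1.47 to 2.57, while Mndal, which lies between Ifi204 and Ifi211, is at -0.09.

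Per kb of the longest coding transcript, the family was led by Ifi203 in both groups. In Veh, Ifi203 reached 101 ± 14.0 CPM per kb (SD, n = 3) and Ifi209 65.6 ± 2.88. Below them came Ifi208 at 43.3 ± 5.06 and Ifi213 at 41.8 ± 8.37, which did not differ beyond their spread, nor did Aim2 at 15.1 ± 1.54 and Ifi214 at 12.9 ± 1.33. Ifi204 stood lower at 7.57 ± 1.96, and Ifi211, Ifi205 and Ifi207 came last at 0.412 ± 0.272, 0.301 ± 0.211 and 0.193 ± 0.0429 CPM per kb, without a clear order. By this length, the 3 members called higher in GSK were among the 4 lowest in Veh. Ifi207 and Ifi211 reached the filter on low counts through their GSK samples, so nothing is read from this order. In GSK, Ifi204 reached 21.02 ± 5.05 CPM per kb, beside Aim2 at 17.4 ± 0.432 and Ifi214 at 14.4 ± 2.59. Ifi211 at 1.72 ± 0.651 and Ifi207 at 1.15 ± 0.325 remained far under Ifi203 at 87.6 ± 16.0. With the length of merged exons in place of the coding transcript, an alternative chosen after seeing the data, Ifi209 at 63.6 CPM per kb came before Ifi203 at 56.6 in Veh, and Ifi204 at 4.88 before Ifi214 at 4.61. Ifi204 was then not among the 4 lowest in Veh.

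Summed over the 10 members, the RNA of the family did not differ by more than the spread between replicates. The sum was 1045, 962 and 841 CPM in Veh samples 1 to 3 and 893, 1071 and 729 CPM in GSK samples 1 to 3. Their means ± SD (n = 3 each) were 949 ± 103 CPM and 898 ± 171 CPM, a difference of -0.09 on the log2 scale. Ifi204, Ifi207 and Ifi211 together made up 1.65% to 2.53% of the summed reads in Veh and 5.39% to 7.08% in GSK. Ifi203 alone made up 38.9% to 41.4% in Veh and 36.2% to 37.2% in GSK.

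Members varied more between replicates than other genes of like depth. For the 7 members with a mean count of at least 500, the median coefficient of variation was 11.7% in Veh and 18.3% in GSK, beside 3.85% and 4.54% for all 6550 genes of that depth. Sample 3 was the lowest GSK sample for all 10 members, as for 36.2% of all genes tested, and the lowest Veh sample for 8 of them, as for 33.9%. The interferon-stimulated genes moved in the same way: of 64 tested, 58 were lowest in GSK sample 3 and 61 in Veh sample 3. The part of this shared variation in the members' spread was not tested.

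**Figure D4:**
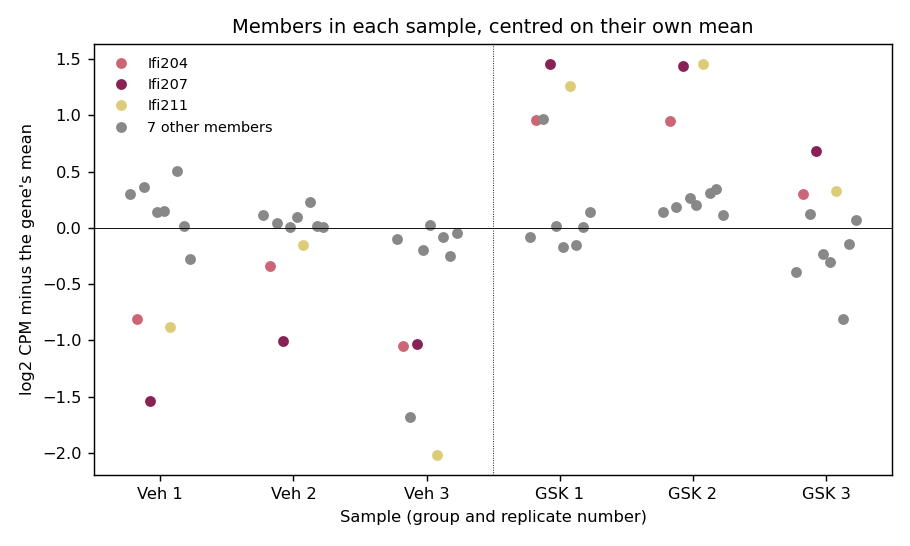
Log2 CPM (prior count 2) of each member in each sample minus that member's mean over the 6 samples, with 1 point per member and sample. Ifi204, Ifi207 and Ifi211 are coloured and the 7 other members are grey. The coloured members are below 0 in every Veh sample and above 0 in every GSK sample, while the grey points are mostly near 0 and lower in sample 3 of each group.

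The 6 genes outside the family whose pattern over the 6 samples was most like the mean of the members were Isg20, Phf11a, Spin2c, Zbp1, 2300009A05Rik and Plk2. Likeness was measured as the root mean square difference of log2 CPM centred on each gene's mean, which was 0.064 for Isg20, 0.080 for Phf11a, 0.083 for Spin2c and Zbp1, 0.109 for 2300009A05Rik and 0.131 for Plk2. Its median over the 10170 genes compared was 0.406. Isg20 encodes an interferon-induced exonuclease and Zbp1 a sensor of left-handed nucleic acid. As means ± SD of 3 samples, Isg20 was at 22.9 ± 4.71 CPM in Veh beside 33.1 ± 5.40 CPM in GSK, and Zbp1 at 139 ± 25.6 beside 217 ± 26.6 CPM. The mean of the members joins unlike patterns, since the 3 members with the largest differences pull it apart from the rest.

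Taken apart, the members had other nearest genes, a choice made after seeing the data. For Ifi204, Ifi207 and Ifi211 the nearest were Slc15a3, at a root mean square difference of 0.225, and Pld4, at 0.338. Close behind Pld4 came Maged1 at 0.351, 2510009E07Rik at 0.357, Gstt1 at 0.364 and Lonrf3 at 0.373. Slc15a3 is a lysosomal peptide transporter and Pld4 a lysosomal exonuclease that degrades nucleic acid. For the 7 other members they were Ifih1 at 0.043, Helz2 at 0.049, BC147527 at 0.055 and Ifit2 at 0.056, followed by Ifi206 at 0.058 and Slfn8 at 0.059. Ifih1 encodes the RNA sensor MDA5, and Ifit2 and Slfn8 are interferon-stimulated genes. None of these 12 nearest genes was among the 6 nearest to the mean of all members.

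Because the members arose by duplication, reads can fit more than one of them. Of all 150-base windows of the longest coding transcript, 150 bases being the length of the reads, 0% of those of Ifi207 and 0% of those of Aim2 occurred in the annotated transcripts of another gene. For Ifi204 the share was 10.8%, all with Ifi211, and for Ifi211 it was 46.4%, mainly with Ifi205, to which 32.3% of its windows also belonged. For Ifi205 it was 36.1%, and for Ifi214 it was 11.9%, all with Ifi209. Ifi208, Ifi203 and Ifi213 shared 2.22%, 0.860% and 0.038% of their windows.

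At 31 bases the shares were higher for every member. They ran from 6.12% for Aim2 and 14.6% for Ifi207 to 56.5% for Ifi205 and 79.2% for Ifi211, with Ifi204 at 46.0%. These shares count windows found in any other gene, and no window of Aim2 was shared with another family gene. The Ifi207 transcript, which had the largest fold change, thus held no shared window at read length. Ifi211 and Ifi205 share more read-length windows with each other than any other pair of members. How the counting divided or dropped shared reads was not tested. Ifi204, which also shares windows with Ifi211, held 1051, 1081 and 669 reads in GSK, beside 66, 79 and 34 for Ifi211. Whether shared reads link the differences of Ifi204 and Ifi211 was not tested.

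Among the other genes of the locus and its flanks, 8 of the 12 measured were tested and 0 were called in edgeR, beside 6.32% of all genes tested. DESeq2 also called 0, and 2 were higher in GSK and 0 lower at an unadjusted p under 0.05. The DNA repair nuclease gene Exo1 passed the adjusted p alone, at a log2 fold change of 0.31 ± 0.07 (SE) and an adjusted p of 0.00449. Kmo, an enzyme of kynurenine metabolism, was at 0.60 ± 0.22 (SE) with an adjusted p of 0.0532, and was called under the filter of at least 50 counts in 3 samples. None of the remaining tested genes passed: Fh1 was at 0.10 (adjusted p = 0.265), Opn3 at 0.33 (0.413), Chml at 0.06 (0.614) and Cadm3 at -0.63 (0.255). Without GSK sample 2, Fh1 passed the adjusted p, at 0.0446 in a range up to 0.632. Ifi202b had at most 4 reads in any sample, and Rgs7 had at most 1.

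Among the genes that work with the family in DNA sensing, 2 of the 38 tested were called higher, beside 2.22% of all genes tested, and 1 lower, beside 4.09%, and their median log2 fold change was 0.04, beside -0.0039 for all genes tested. Zbp1 rose by a log2 fold change of 0.65 ± 0.17 (SE, adjusted p = 0.0449), Polr3d, a subunit of RNA polymerase III, rose by 0.64 ± 0.10 (SE, adjusted p = 4.18e-04), and Enpp1, which degrades the second messenger cGAMP, fell to -0.84 ± 0.22 (SE, adjusted p = 0.0117). At the adjusted p alone 12 were higher, beside 16.6% of all genes tested, and 3 lower, beside 15.5%, among them the DNA exonuclease Trex1 at 0.24 ± 0.08 (SE, adjusted p = 0.0442). The call of Zbp1 was lost without a filter on low counts and on leaving out any one of the 6 samples (without Veh sample 3 by its fold change, at 0.50), and its adjusted p ran from 8.92e-05 to 0.137 over 11 alternatives. Polr3d missed the fold change without GSK sample 3, at 0.54. Enpp1 lost its call without Veh sample 3, at an adjusted p of 0.0560, and without GSK sample 1, at 0.0550, within a range from 0.00434 to 0.0560 over the alternatives. For Trex1 the adjusted p ran from 0.0338 to 0.156, and it missed the threshold in DESeq2 and without Veh sample 1 or 3 or GSK sample 1 or 2.

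The named genes of the path from DNA to interferon did not pass the test. Log2 fold changes were 0.18 for the DNA sensor Cgas (adjusted p = 0.105), -0.06 for the adaptor Sting1 (0.356), 0.05 for the kinase Tbk1 (0.474), -0.01 for Irf3 (0.918) and 0.22 for Irf7 (0.582). Samhd1, which depletes nucleotides, was at -0.32 (adjusted p = 0.106), and passed the adjusted p without GSK sample 3, at 0.0401 in a range from 0.00342 to 0.247 over the alternatives. Interferon beta itself, Ifnb1, had 1 read in all samples together and was not tested.

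The inflammasome genes around Aim2 showed 0 called higher and 2 called lower of 23 tested in edgeR, beside 2.22% and 4.09% of all genes tested, with 2 higher at an unadjusted p under 0.05 and 0 called higher in DESeq2. Their median log2 fold change was 0.0075. Txnip, an inhibitor of thioredoxin, fell to -0.60 ± 0.12 (SE, adjusted p = 0.0156), and the signalling adaptor Card9 to -0.90 ± 0.31 (SE, adjusted p = 0.0398). The partners of AIM2 did not pass the test: Pycard was at -0.12 (adjusted p = 0.124), Casp1 at 0.04 (0.949), the pore-forming Gsdmd at 0.09 (0.376) and Il18 at -0.61 (0.142). Il1b had 1 read in all samples together and was not tested. Txnip missed the fold change without Veh sample 1, at -0.54, and without GSK sample 3, at -0.51. The call of Card9 was lost in 7 of 10 alternatives, among them DESeq2, no filter on low counts and leaving out Veh sample 1 or 2 or GSK sample 1 or 2, with an adjusted p from 0.0397 to 0.158.

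Of the 20 interferon receptor and signalling genes, 1 was called higher and 1 lower, beside 2.22% and 4.09% of all genes tested, with a median log2 fold change of -0.09. Ifng, the gene of interferon gamma, rose by 1.39 ± 0.31 (SE, adjusted p = 0.0141), from 44, 118 and 105 reads in Veh to 243, 205 and 272 in GSK. The groups did not overlap, and Veh sample 1 was the lowest. The interferon gamma receptor chain Ifngr2 fell to -0.65 ± 0.11 (SE, adjusted p = 6.05e-04), and Ifngr1 was lower by the adjusted p alone at -0.42 ± 0.04 (SE, adjusted p = 3.26e-05). The receptor chain for type I interferon Ifnar1 was at -0.23 (adjusted p = 0.0112) and Ifnar2 at -0.09 (0.353). Stat2 at 0.15, Irf9 at -0.15 and Irf1 at 0.02 did not pass the test, with adjusted p-values of 0.307, 0.207 and 0.857. Without GSK sample 2, Irf9 passed the adjusted p, at 0.0115 in a range up to 0.512. Without GSK sample 3 the call of Ifng was lost, at an adjusted p of 0.0515 in a range from 4.43e-07 over the alternatives, and without GSK sample 1 Ifnar1 had an adjusted p of 0.0632, in a range from 1.71e-04.

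Of 64 interferon-stimulated genes tested, 1 was called higher and 0 lower in edgeR, beside 2.22% and 4.09% of all genes tested, with a median log2 fold change of 0.14. At an unadjusted p under 0.05, 13 were higher and 5 lower, and DESeq2 called 1 higher and 0 lower. The called gene was Cxcl10, a chemokine that draws T cells, at 0.85 ± 0.28 (SE, adjusted p = 0.0327). Phf11a was higher by the adjusted p alone at 0.53 ± 0.16 (SE, adjusted p = 0.0312), and Isg20, the gene most like the family mean, did not pass at 0.53 ± 0.18 (SE, adjusted p = 0.0641). Cxcl10 lost its call without Veh sample 1 or 3 or GSK sample 1 or 2, with an adjusted p from 0.0108 to 0.139 over 11 alternatives. Phf11a missed the adjusted p without Veh sample 3 or GSK sample 1 or 2, with an adjusted p from 0.00380 to 0.111, and was called without Veh sample 1 or 2 or GSK sample 3. Isg20 was called without Veh sample 2 or GSK sample 3, and its adjusted p ran from 0.00110 to 0.157. The 3 members called higher had larger fold changes than every one of these 64 genes, a comparison chosen after the values were seen and not tested.

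**Figure D5:**
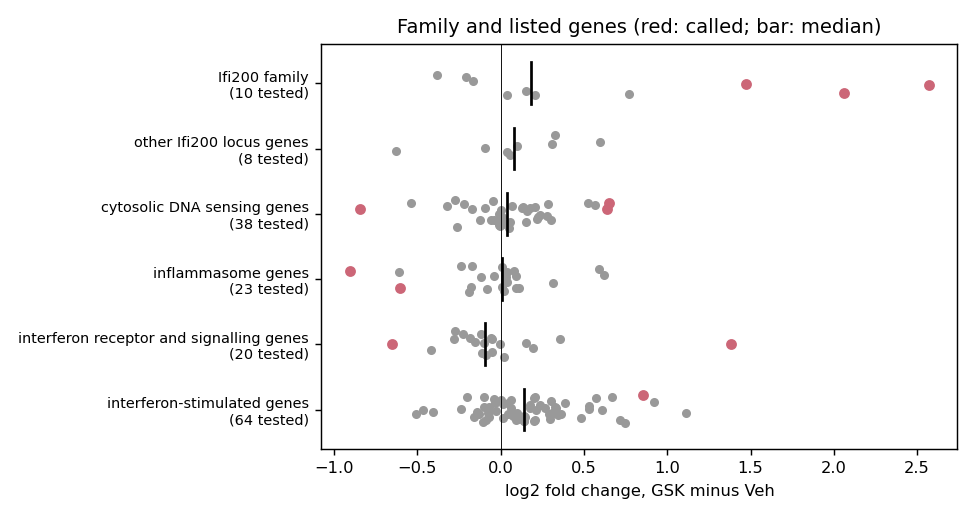
Log2 fold change (GSK minus Veh) of the 10 family members and of the tested genes of the 5 lists around them, 1 point per gene, with vertical scatter for legibility. Red points were called, grey points were not, and black bars are medians. Ifi204, Ifi207 and Ifi211 lie to the right of every gene of the lists. The members were chosen with this contrast in view, so nothing is read from this placing.

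Several members are also active in macrophages and other myeloid cells, so markers of other cell types were read beside them. Of 18 myeloid markers, 15 were in the table, and Csf1r, Cd14, Adgre1, Fcgr1, Spi1 and Clec9a were below the filter, with at most 0.272 CPM in any sample. Of the 9 tested, Tyrobp rose to 0.678 to 1.06 CPM in GSK from 0.105 to 0.590 CPM in Veh, and Fcgr3 and Itgax fell. The list summed to 894 to 953 CPM in Veh and 903 to 1157 CPM in GSK, most of it Ly6c2, which activated CD8+ T cells also express. Of 8 B-cell markers, 3 were tested, and Cd79a, Ms4a1, Pax5 and Blnk were among those below the filter. Cd22 rose, from at most 0.590 CPM in Veh to at least 2.29 CPM in GSK, and H2-Ab1 fell, while the list summed to 24.6 to 26.9 CPM in Veh and 12.2 to 20.6 CPM in GSK. The NK-cell markers summed to 615 to 635 CPM in Veh and 990 to 1074 CPM in GSK through Nkg7 and Eomes, both of which CD8+ T cells express, while Ncr1 and Klra8 had at most 0.0526 CPM in any sample. The CD4 T-cell markers summed to 43.1 to 52.9 CPM in Veh and 39.2 to 44.8 CPM in GSK, none of them past the test, and the erythroid markers to at most 0.272 CPM. The part of Tyrobp, Cd22, Nkg7 and Eomes in the members' difference was not tested.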

How the data were processed

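RNA of CD8+ T cells was measured in 3 GSK and 3 Veh samples by polyadenylated, stranded RNA-seq. According to the submitters' processing notes, the authors trimmed reads with Trimmomatic, aligned them to GRCm38 with HISAT2 (2.1.0) and obtained counts per gene with HTSeq (0.11.2). The deposited values used here are those whole counts, not normalized. The annotation release and the strand setting of the counting are not given in the sources used here, so reads of near-identical family members may be divided or dropped.

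Counts were compared in R (4.3.3) with edgeR (4.0.16), by its quasi-likelihood test with robust dispersions and TMM factors. The filterByExpr step (minimum count of 10, 3 samples) kept 11698 genes, and p-values were adjusted over these by the Benjamini-Hochberg method. The cutoffs of the study, 0.05 for the adjusted p and 1.5 for the fold change, defined a call. Standard errors were derived from the test statistic. The members and gene lists were chosen with earlier results of these data known. Genes were named by a rule: all members, all measured genes of the locus list, up to 5 called genes each way per other list, a fixed set of pathway genes, and the 6 genes most like the mean of the members among those averaging 50 or more counts. Spin2c, Slc15a3, Pld4 and the other nearest genes entered by that rule or its later split. Myeloid, B-cell, NK-cell, CD4 T-cell and erythroid markers were read as lists. Transcript lengths and windows came from GENCODE M21, and promoters and coordinates from RefSeq tables of GRCm38.p6, matched by symbol or Entrez identifier. The older symbols Pydc3, Pydc4 and Mnda are those of members and were not counted again.

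Total counts lay between 18288447 and 19846720 per sample, so counts of a few reads, as for Ifi205, are imprecise. With 3 samples against 3, the smallest two-sided p of an exact permutation test is 0.1, which is why p-values come from the model of all genes. The comparison was repeated in DESeq2 (1.42.0), with RLE size factors, with no or a stricter filter on low counts, with the replicate number as a block, with a fold change of 1.5 as the null, by the adjusted p alone, and leaving out single samples. The test was checked on simulated counts. Some genes that the rule names are not reported here. The study's other assays were not analysed here.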

Additional observations from a re-analysis of the deposited data

How the results depend on the processing

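The 3 members called higher were also called in DESeq2, with RLE size factors and without a filter on low counts. Members called numbered 1 in the test of the fold change against 1.5, and leaving out one sample gave 2 to 3. The call of Ifi204 is the one that leaving out a sample ended. With at least 50 counts in 3 samples, Ifi211 was no longer tested. No member's fold change that was called changed sign. Between the numbered samples of the 2 groups, the correlations of deviations from the group means were -0.052, -0.081 and 0.16. The numbers were therefore not taken to pair the samples. The study's text names 3 separate mice and its figure legend 3 mice per group. Samples of the 2 groups may thus share mice, and in that case the main test leaves out their pairing. The replicate block, which called 253 genes higher and 447 lower, is given only as a check. It lowered the SE of every member but Ifi207 and Aim2, for example from 0.27 to 0.10 for Ifi204. With the replicate block, 6 interferon-stimulated genes and 1 inflammasome gene were called, and 3 members, and Irf7, Samhd1, Stat2 and Isg20 passed the adjusted p, at 0.0133, 0.00342, 0.0461 and 0.00110. Of the 6 samples, 2 correlated best with the sample of their own number in the other group. The others did so across numbers, Veh sample 1 with GSK sample 2 at 0.22 and Veh sample 2 with GSK sample 1 at 0.11. A crossed pairing was not used.

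All genes called numbered 739, and 134 in the test against 1.5 or 3760 by the adjusted p alone, while leaving out one sample gave 643 to 838. In the test against 1.5, 0 genes of the DNA sensing, inflammasome, interferon signalling and interferon-stimulated lists were called. The adjusted p alone gave 1 locus gene, 15 DNA sensing, 4 inflammasome, 8 interferon signalling and 11 interferon-stimulated genes. The filter of at least 50 counts in 3 samples gave 1 locus gene, Kmo. For inflammasome genes, DESeq2, no filter and the filter of at least 50 counts each gave 1. Leaving out one sample gave 1 to 3 DNA sensing genes, with 1 without Veh sample 3 or GSK sample 3, 0 to 2 inflammasome genes, with 0 without Veh sample 1, 1 to 2 interferon signalling genes, with 1 without GSK sample 3, and 0 to 3 interferon-stimulated genes, with 0 without Veh sample 3 or GSK sample 1. The cause of these changes was not tested. The summed family level, at -0.09 on the log2 scale, moved by less than the spread between replicates with RLE size factors, without Ifi203 and without each sample. Depth limits Ifi205, Ifi207 and Ifi211 most, whose Veh samples held 2 to 23 reads.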
